A study of Mus musculus with 10 samples.

Results

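The genes described here encode the enzymes that add methyl groups to cytosine in DNA and those that start their removal. The 9 members asked for were Dnmt1, Dnmt3a, Dnmt3b, Dnmt3l, Uhrf1, Tet1, Tet2, Tet3 and Tdg. They were found by taking every probe set whose platform annotation names 1 of them and no other gene. This gave 20 probe sets for 8 genes, of 45037 probe sets for 18193 named genes on the array. The 3 probe sets of Tdg, a DNA glycosylase, are annotated jointly to Tdg and to its copies Tdg-ps and Tdg-ps2. They were therefore not analysed here.

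Expression was measured on 10 Affymetrix arrays of mouse CGR8 cells, an established embryonic stem (ES) cell line of strain SV129, so all groups derive from 1 line. The ES arrays comprised 3 untreated cultures and 3 cultures given 1 mM EBIO for 3 days, each taken at passages 25, 26 and 27. The other arrays comprised 2 cultures that spent 5 days as embryoid bodies and then 10 days without EBIO, and 2 cultures that had those 10 days with EBIO at a dose the labels do not give. EBIO is a compound that opens potassium channels gated by calcium, and the series' title concerns heart cell formation from pluripotent cells.

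Methylation of cytosine in CG dinucleotides is copied to the new strand after each round of DNA replication by DNMT1, which UHRF1 guides to half-methylated sites. DNMT3A and DNMT3B set methyl marks on sites that had none, and DNMT3L, which has no catalytic activity of its own, stimulates them. TET1, TET2 and TET3 oxidise the methyl group, and TDG excises the most oxidised forms. Mouse ES cells are known for high Tet1, Dnmt3b and Dnmt3l expression, and differentiated cells for a shift towards Tet3 and Dnmt3a.

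Promoter windows are shown for the genes on which the results turn: Tet1, Tet2 and Dnmt3a fell together in ES cells, Dnmt3b did not pass the test there, and Dnmt3l was high in ES cells and dim in differentiated cells. Each window holds the 250 bases before and the 50 after a RefSeq transcription start (build GRCm38.p6), with every CG in capitals, since CG is the dinucleotide these enzymes act on. For Dnmt3a and Dnmt3l the most upstream of 3 listed starts is shown.
Tet1, chr10:62887275-62887574, minus strand: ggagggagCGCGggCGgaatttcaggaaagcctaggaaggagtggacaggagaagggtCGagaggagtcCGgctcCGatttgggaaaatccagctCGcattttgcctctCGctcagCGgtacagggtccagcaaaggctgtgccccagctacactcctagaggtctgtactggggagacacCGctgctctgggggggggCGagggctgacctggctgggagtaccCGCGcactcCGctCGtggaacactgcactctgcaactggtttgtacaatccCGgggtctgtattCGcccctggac
Tet2, chr3:133544341-133544640, minus strand: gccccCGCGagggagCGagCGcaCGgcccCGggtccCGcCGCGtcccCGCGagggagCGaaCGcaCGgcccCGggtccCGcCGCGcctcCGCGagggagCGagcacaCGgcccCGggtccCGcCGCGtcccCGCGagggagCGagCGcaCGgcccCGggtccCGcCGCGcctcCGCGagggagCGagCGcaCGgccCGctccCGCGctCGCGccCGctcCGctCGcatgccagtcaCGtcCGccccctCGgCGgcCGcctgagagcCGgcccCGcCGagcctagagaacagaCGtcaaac
Dnmt3a, chr12:3806730-3807029, plus strand: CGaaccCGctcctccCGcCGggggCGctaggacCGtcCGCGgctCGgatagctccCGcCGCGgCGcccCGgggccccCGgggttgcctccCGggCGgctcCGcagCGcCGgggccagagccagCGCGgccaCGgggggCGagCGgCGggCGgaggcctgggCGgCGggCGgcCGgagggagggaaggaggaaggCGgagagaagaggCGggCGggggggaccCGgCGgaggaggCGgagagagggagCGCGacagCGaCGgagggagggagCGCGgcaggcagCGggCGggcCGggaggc
Dnmt3b, chr2:153649199-153649498, plus strand: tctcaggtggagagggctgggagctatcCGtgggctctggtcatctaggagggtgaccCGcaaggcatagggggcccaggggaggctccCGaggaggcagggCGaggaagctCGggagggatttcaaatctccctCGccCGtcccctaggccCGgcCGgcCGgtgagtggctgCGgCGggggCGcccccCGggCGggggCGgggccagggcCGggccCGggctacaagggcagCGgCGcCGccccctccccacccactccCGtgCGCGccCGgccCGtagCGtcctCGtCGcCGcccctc
Dnmt3l, chr10:78042037-78042336, plus strand: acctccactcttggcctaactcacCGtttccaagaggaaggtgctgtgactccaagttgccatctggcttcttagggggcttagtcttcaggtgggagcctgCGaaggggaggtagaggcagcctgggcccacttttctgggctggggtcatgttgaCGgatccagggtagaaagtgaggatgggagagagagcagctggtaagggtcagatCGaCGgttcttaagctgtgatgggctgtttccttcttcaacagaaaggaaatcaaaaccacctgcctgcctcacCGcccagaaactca

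The windows differed in CG content. The Tet2 window held 57 CG, at percentile 99.8 of the 32851 promoter windows of the same length, and the Dnmt3a window held 46. The other listed Dnmt3a starts held 47 and, at the most downstream, 18 (percentile 70.3). The Dnmt3b window held 30 and the Tet1 window 17. The Dnmt3l window held 6, below the median of 7 over all windows, and its other listed starts held 4 and 3. All 9 members had a window, 16 in all. Of 4 motifs searched on both strands, the octamer ATTTGCAT was in none of the 16 (1.74% of all windows). The GC box GGGCGG was in 12 of 16 (35.7% of all windows) and CCAAT in 6 of 16 (37.4%). TTTNNCGC, an E2F-like motif, was in 3 of 16 (5.17%): the most downstream start of Dnmt1 and both starts of Uhrf1. The 16 windows are not independent, since several genes have more than 1 and those of the 2 most upstream Dnmt3a starts share sequence. Matches of different motifs may overlap, and a match describes letters in these windows only.

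Values are the authors' log2 expression values made with RMA, which removes background, gives jointly processed arrays the same distribution and reduces the probes to 1 value per probe set. RMA compresses the dim end, so a difference that ends there is understated. The ES arrays and the differentiated arrays had been normalized as separate sets: quantiles of array pairs differed on average by at most 0.093 within a set and by at least 0.908 between sets. Each EBIO comparison was therefore made within a stage, and levels at the 2 stages are compared only by rank within an array. A probe set was tested with limma where it exceeded its array's median, 4.52 to 4.62 on ES arrays and 5.59 to 5.68 on differentiated arrays, on a number of arrays not below the size of the smaller group. Differences are EBIO minus control, and calls are at a Benjamini-Hochberg adjusted p of 0.05 over all probe sets tested.

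Cell type markers were first set against the array median in the untreated groups. All 14 pluripotency markers exceeded the array median on every untreated ES array, and all 12 cardiomyocyte, 7 fibroblast and 8 macrophage markers with a probe set did so on both untreated differentiated arrays. The median did not separate the labels for every list. On both untreated differentiated arrays 7 pluripotency markers also exceeded it and 7 lay below it. On every untreated ES array all 6 epithelial and 6 of 7 neural markers exceeded it. With EBIO in ES cells all 14 pluripotency markers fell, the sum of their log2 values going from 153 to 157 in controls to 103 to 107, and 2 of them lying below the array median on every treated array. Of the 12 cardiomyocyte markers 4 exceeded the median on every untreated and 2 on every treated ES array, and of 5 tested 2 fell, Ttn (-1.30) and Myl7 (-0.47). With EBIO in differentiated cells all 12 cardiomyocyte markers rose, and all tested fibroblast (7), macrophage (8), endothelial (5), epithelial (6) and liver and endoderm (6) markers fell. On both treated arrays all 8 macrophage, 5 of 6 endothelial, 3 of 6 liver and endoderm and 1 of 7 fibroblast markers lay below the median. Those of them that were tested passed the filter through the controls alone, so only a fall was possible. In treated ES cells 4 of 6 epithelial, 3 of 4 smooth muscle, 5 of 6 extraembryonic endoderm and 4 of 7 neural markers tested rose, and 1 of each list fell (Epcam, Des, Lama1 and Pax6). Of the endothelial markers 2 of 4 fell (Pecam1, -2.92, and Tek, -1.24), as did 1 of 3 macrophage markers (Laptm5, -4.42) and 1 of 4 trophoblast markers (Tfap2c, -2.03). No fibroblast marker (1 tested) or liver and endoderm marker (5 tested) was called, and 0 had an unadjusted p under 0.05 (limma). The epithelial sum went from 47.0 to 51.3 in controls to 62.8 to 65.3 with EBIO. In treated differentiated cells 3 of 4 smooth muscle markers rose and 1 fell (Des), 3 of 7 extraembryonic endoderm markers rose and 1 fell (Dab2, -2.27), and 4 of 6 neural markers rose and 2 fell (Ncam1, -0.96, and Nes, -0.77). Of 7 pluripotency markers tested there 3 fell and 1 rose, and 1 of 3 trophoblast markers fell (Krt7, -6.34). Over all genes tested by leading probe set 31.8% were called higher at this stage and 31.7% lower. The fall was likewise fixed by the filter for Sox2 and Krt7 here, and in ES cells for Tek and the 2 dim pluripotency markers. The rises of Map2 at both stages, Gata6 in ES cells and Pax6 in differentiated cells were fixed too, as their controls lay below the median. The part of these shifts in the results below was not tested. In such bulk RNA, fewer cells of a type and less RNA per cell cannot be told apart.

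In ES cells EBIO lowered Tet1, Tet2, Dnmt3a, Uhrf1 and Dnmt3l, while Dnmt1, Dnmt3b and Tet3 did not pass the test. The falls ran from 21.8-fold for Tet1 to 1.40-fold for Dnmt3l. Of the 20 probe sets, 13 were called lower, none higher, 6 were not called and 1 was too dim to test. Without adjustment, at a p under 0.05, limma also gave 13 lower and 0 higher. Over all 23184 probe sets tested 39.5% were called, 17.6% lower and 21.8% higher. The 13 came from 5 genes, so they are not independent. By leading probe set 5 of 8 genes were called lower and 0 higher, against 20.5% and 22.8% of all genes tested. The groups did not overlap for 13 of the 19 tested, against 50.5% of all probe sets tested. By leading probe set they did not overlap for the 5 genes called, against 54.7% of all genes tested. For 1 probe set each of Dnmt3a and Tet2, all EBIO arrays lay below the array median, so these passed the filter through the control group alone. Tet1 probe set 1419896_at exceeded the median on 1 EBIO array only, and its controls met the filter without that array. Dnmt3a probe sets 1423063_at and 1460324_at exceeded it on 2 EBIO arrays each, and their controls also met the filter by themselves.

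**Figure D1:**
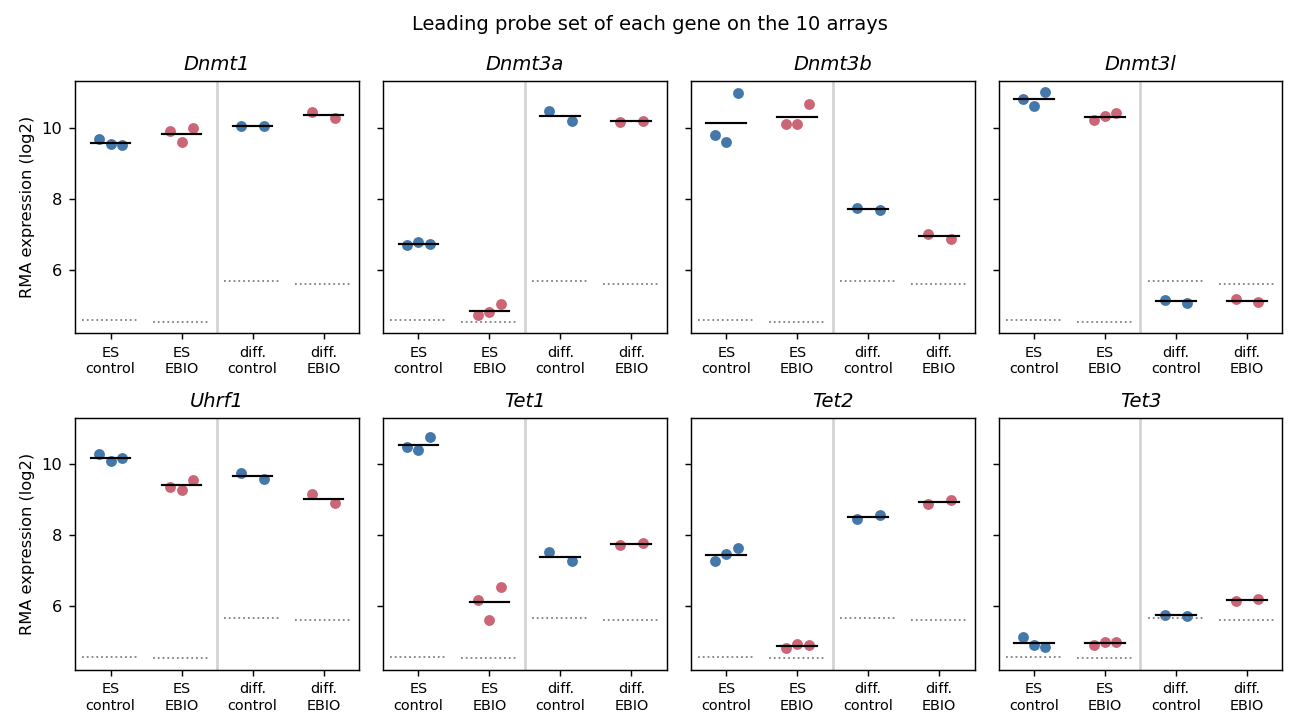
Log2 expression of the leading probe set of each of the 8 genes on the 10 arrays (points), with group means (black bars) and mean array medians (dotted lines); ES arrays left and differentiated arrays right of the grey line, which were normalized separately. Tet1 lies between 10.42 and 10.76 in untreated ES cells and between 5.62 and 6.55 with EBIO.

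Among the demethylation genes, Tet1 changed most. Its leading probe set, the one with the highest mean over the 10 arrays, measured 10.49, 10.42 and 10.76 in untreated ES cells and 6.17, 5.62 and 6.55 with EBIO. Every EBIO array lay far below every control array, yet above the array medians. The difference was -4.44 ± 0.23 (SE, n = 3 each, adjusted p = 5.8e-06, limma), and it was -4.32, -4.79 and -4.22 within passages 25, 26 and 27. Probe set 1429448_s_at gave -4.11 (adjusted p = 2.7e-06, limma). Probe set 1419896_at exceeded the array median on 1 treated array only, and its controls met the filter by themselves, so its -3.08 is given as a value only. The remaining Tet1 probe set, 1419897_at, was below the array median on 5 of 6 ES arrays and on all differentiated arrays.

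Tet2 fell as well. Its leading probe set measured 7.27, 7.47 and 7.64 in controls and 4.82, 4.93 and 4.91 with EBIO, so the groups were well apart and the treated arrays close together. The difference was -2.57 ± 0.13 (SE, n = 3 each, adjusted p = 6e-06, limma), 5.95-fold. The treated values ranked at percentile 56.0 to 58.4 of their arrays, near the dim end, where a fall is understated. The other Tet2 probe set, 1438781_at, lay below the median on every treated array; it passed the filter through the controls alone, and its -1.39 is given as a value only.

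Tet3, measured by a single probe set, did not pass the test. It measured 5.14, 4.90 and 4.87 in controls and 4.91, 5.00 and 5.00 with EBIO, and the groups overlapped. The difference was -0.0024 with a 95% confidence interval of -0.29 to 0.29 (n = 3 each, adjusted p = 0.99, limma). Tet3 was dim in ES cells, at percentile 56.6 to 60.8 of the control arrays.

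Among the genes of new methylation, Dnmt3a fell while Dnmt3b did not pass the test. The leading Dnmt3a probe set measured 6.71, 6.77 and 6.73 in controls and 4.72, 4.80 and 5.02 with EBIO. The control arrays agreed closely and the treated arrays sat just above the array medians. The difference was -1.89 ± 0.13 (SE, n = 3 each, adjusted p = 1.9e-05, limma), 3.70-fold. Probe set 1423064_at, above the median on every treated array, was also called lower (-1.46, adjusted p = 0.00038, limma), with no overlap. Probe sets 1423063_at and 1460324_at exceeded the median on 2 treated arrays each, and their controls met the filter by themselves. Their -0.92 and -0.57 are given as values only. Probe set 1423065_at passed the filter through the controls alone, and its -0.55 is given as a value only. Probe set 1460324_at (-0.57, adjusted p = 0.032) was not called without the passage 27 arrays (adjusted p = 0.059) or without the filter on dim probe sets (adjusted p = 0.053).

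Dnmt3b stayed among the brightest probe sets of the ES arrays. Its leading probe set measured 9.80, 9.61 and 10.97 in controls and 10.11, 10.09 and 10.68 with EBIO. The groups overlapped, and the passage 27 culture was the highest of its group in both. The difference was 0.16 ± 0.34 (SE, n = 3 each, adjusted p = 0.75, limma), with a 95% confidence interval of -0.63 to 0.95. Within passages 25, 26 and 27 the difference was 0.31, 0.48 and -0.30. Without the passage 27 control alone it was 0.59 and called higher (adjusted p = 0.041), and without both passage 27 arrays it was 0.39 and not called (adjusted p = 0.065). Probe set 1418351_a_at gave 0.20 (adjusted p = 0.62).

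**Figure D2:**
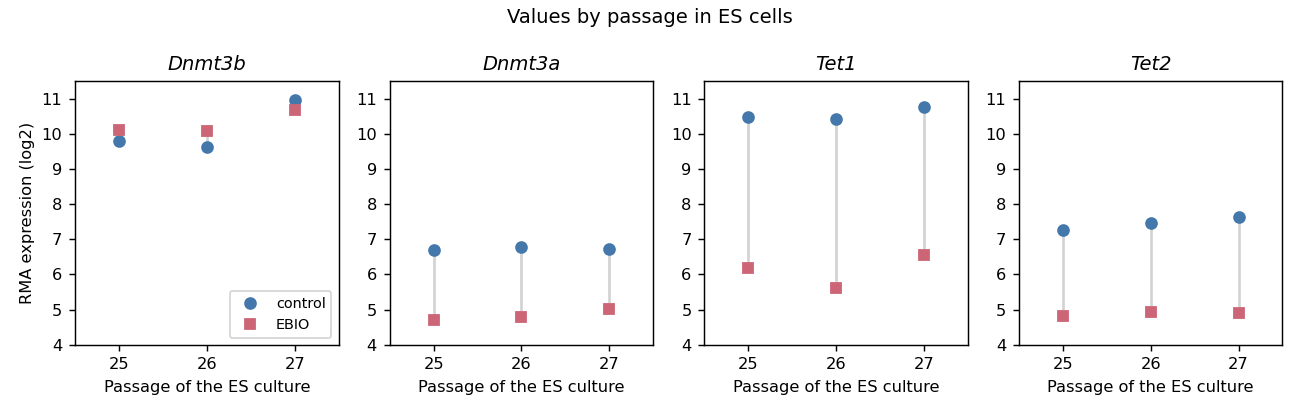
Log2 expression of the leading probe sets of Dnmt3b, Dnmt3a, Tet1 and Tet2 (vertical axis) against the passage of the ES culture, for control (circles) and EBIO (squares), grey lines joining the arrays of a passage. For Dnmt3b the control lies below EBIO at passages 25 and 26 and above it at passage 27, whereas for the other genes EBIO is lower at each passage.

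Dnmt3l, the catalytically inactive cofactor, was slightly lower. It measured 10.81, 10.62 and 10.99 in controls and 10.21, 10.34 and 10.40 with EBIO. The groups did not overlap, and all 6 arrays ranked it at percentile 96.8 or above. The difference was -0.49 ± 0.14 (SE, n = 3 each, adjusted p = 0.023, limma). The call ended when control 1, EBIO 1 or EBIO 2 was left out (adjusted p = 0.053, 0.093 and 0.061). Its only probe set is of the _s_at type, which on these arrays can bind transcripts of more than 1 gene.

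Of the maintenance genes, Uhrf1 fell and Dnmt1 did not pass the test. Uhrf1 measured 10.29, 10.11 and 10.19 in controls and 9.38, 9.29 and 9.56 with EBIO by its leading probe set. The groups were separate, and both remained bright. The difference was -0.79 ± 0.13 (SE, n = 3 each, adjusted p = 0.0015, limma), and probe set 1415811_at gave -0.97 (adjusted p = 0.001). Dnmt1 measured 9.67, 9.54 and 9.52 in controls and 9.90, 9.59 and 10.00 with EBIO. Its groups overlapped, with a difference of 0.25 ± 0.14 (SE, n = 3 each, adjusted p = 0.21, limma) and a 95% confidence interval of -0.08 to 0.58. Within passages 25, 26 and 27 the treated culture was higher each time, by 0.23, 0.05 and 0.48. With the passages as a block the difference was not called either (adjusted p = 0.14). The other Dnmt1 probe sets gave 0.21 and 0.22, positive at each passage and not called with or without the block. The leading Dnmt1 probe set is of the _x_at type, some of whose probes may bind other transcripts.

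Other measures moved with these falls. Of the 31 DNA replication genes listed, whose activity follows the same S phase in which Dnmt1 and Uhrf1 act, 16 were called lower and 2 higher (median -0.44). Pola1 (-1.68) and Mcm10 (-1.32) fell most, and Ccne2 (1.63) and Cdc6 (0.57) rose. Of 18 mitosis genes 7 were lower and 0 higher (1 higher at an unadjusted p under 0.05, limma), led by Nusap1 (-1.09) and Bub1b (-0.89). The array-wide share called lower was 20.5% of genes. The Actb 3′ minus 5′ difference, a measure of RNA integrity, was 0.33 to 0.50 in control and 0.08 to 0.20 in EBIO-treated ES cells, while that of Gapdh was -0.08 to 0.06 and 0.01 to 0.04. The part of either in the results was not tested.

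**Figure D3:**
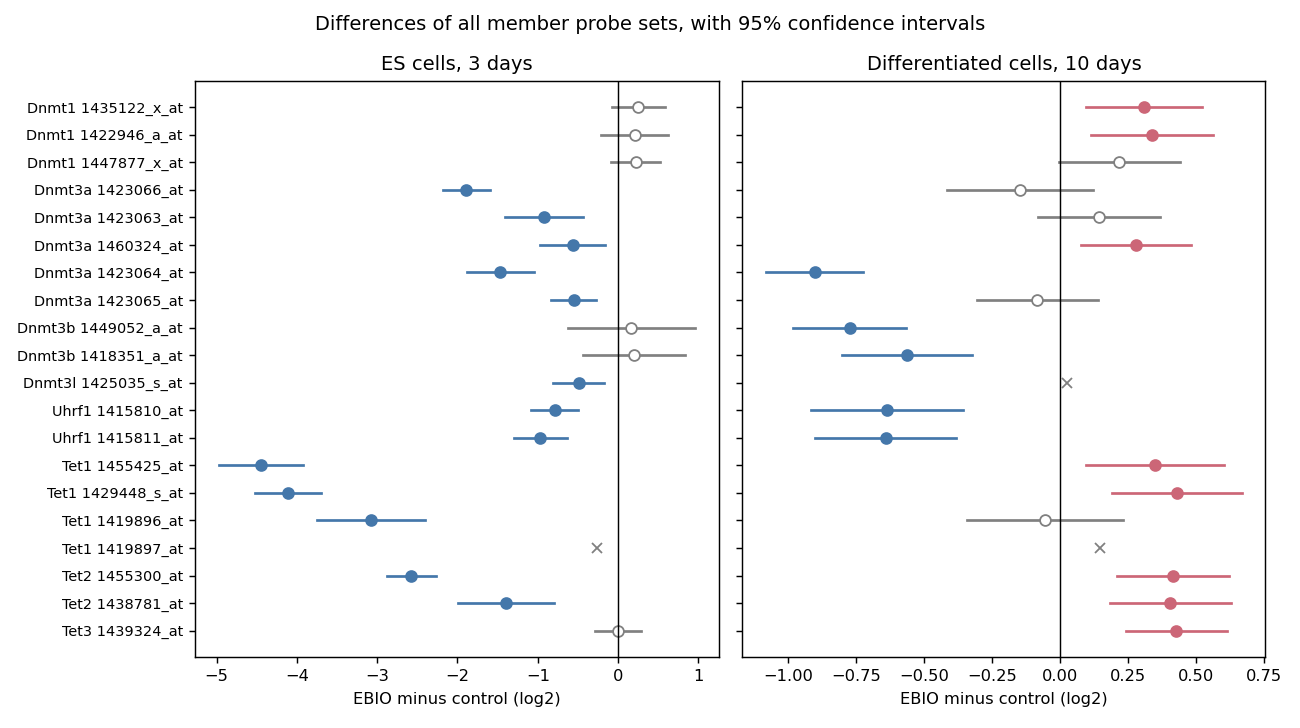
EBIO minus control (log2, horizontal axis) for all 20 member probe sets in ES cells (left) and differentiated cells (right), whose axes differ in scale; points are differences with 95% confidence intervals, filled where called, and crosses are probe sets too dim to test. Tet1, Tet2, Dnmt3a, Uhrf1 and Dnmt3l lie left of 0 in ES cells, and Dnmt3b, Uhrf1 and 1 called Dnmt3a probe set in differentiated cells.

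In differentiated cells the changes were small and ran both ways. Tet1, Tet2, Tet3 and Dnmt1 were higher with EBIO, by 1.24-fold to 1.34-fold, and Dnmt3b and Uhrf1 were lower, by 1.71-fold and 1.55-fold. Dnmt3a was not called by its leading probe set, and Dnmt3l was too dim to test. Of the 20 probe sets 8 were called higher, 5 lower, 5 were not called and 2 were not tested. Over all 23689 probe sets tested 61.1% were called, 33.6% higher and 27.5% lower. The 5 of 18 tested called lower and the 8 of 18 called higher are given beside these shares only, and no excess is read from them. Of the 8, Tet1, Tet2 and Dnmt1 gave 2 each, so they are not independent. The groups did not overlap for 15 of the 18 tested, against 82.1% of all probe sets tested. By leading probe set 6 of 7 tested genes were called, against 63.6% of all genes tested.

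All 3 TET genes were called higher. Tet2 measured 8.47 and 8.58 in controls and 8.90 and 8.99 with EBIO, a difference of 0.41 ± 0.08 (SE, n = 2 each, adjusted p = 0.007, limma). Probe set 1438781_at gave a nearly equal 0.41 (adjusted p = 0.01). Tet3 measured 5.77 and 5.73 in controls, just above the array medians, and 6.14 and 6.21 with EBIO. Its difference was 0.43 ± 0.07 (SE, n = 2 each, adjusted p = 0.0042, limma).

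Tet1 was less firm. It measured 7.52 and 7.29 in controls and 7.72 and 7.79 with EBIO, and the controls were farther apart than the higher control and the lower treated array. The difference was 0.35 ± 0.10 (SE, n = 2 each, adjusted p = 0.028, limma). It was not called without the filter on dim probe sets (adjusted p = 0.054), with all 4 groups in the fit (adjusted p = 0.32), or without control 2, EBIO 1 or EBIO 2 (adjusted p = 0.11, 0.077 and 0.12). Probe set 1429448_s_at gave 0.43 (adjusted p = 0.011), while 1419896_at gave -0.05 (adjusted p = 0.71).

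The methyltransferase genes diverged. Dnmt3b measured 7.74 and 7.69 in controls and 7.01 and 6.87 with EBIO, so the groups were apart by far more than their spread. The difference was -0.77 ± 0.08 (SE, n = 2 each, adjusted p = 0.00064, limma), and probe set 1418351_a_at gave -0.56 (adjusted p = 0.0038). With all 4 groups in the fit, which adds the wide Dnmt3b spread of the ES arrays, it was not called (adjusted p = 0.14). Dnmt1 measured 10.05 and 10.04 in controls and 10.43 and 10.27 with EBIO, a difference of 0.31 ± 0.09 (SE, n = 2 each, adjusted p = 0.024, limma). Its call ended without the filter (adjusted p = 0.053), with all 4 groups in the fit (adjusted p = 0.14), and without control 1, control 2 or EBIO 1 (adjusted p = 0.081, 0.092 and 0.13).

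The 5 Dnmt3a probe sets disagreed in differentiated cells. The leading one measured 10.46 and 10.19 in controls and 10.16 and 10.19 with EBIO, a difference of -0.15 with a 95% confidence interval of -0.41 to 0.12 (n = 2 each, adjusted p = 0.28, limma). Probe set 1423064_at measured 8.22 and 8.21 in controls and 7.31 and 7.32 with EBIO (-0.90, adjusted p = 0.00019). Probe set 1460324_at went the other way (0.28, adjusted p = 0.028, and not called without the filter, adjusted p = 0.063), and the remaining 2 were not called. All 5 carry the same source sequence in the annotation, which names no other gene for them. Whether each detects Dnmt3a transcripts only was not tested, and no transcript form was assigned to any of them.

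Uhrf1 fell at this stage too. It measured 9.77 and 9.59 in controls and 9.15 and 8.93 with EBIO, with no overlap. The difference was -0.64 ± 0.11 (SE, n = 2 each, adjusted p = 0.0043, limma), and probe set 1415811_at gave -0.64 (adjusted p = 0.0032). Beside this, 22 of 31 DNA replication genes and 17 of 18 mitosis genes were called lower (medians -0.55 and -0.77), against 31.7% of all genes tested by their leading probe set. Tk1 (-1.35) and Mcm3 (-0.98) fell most among the first and Bub1b (-1.40) and Cenpa (-1.24) among the second, while Rrm2 (0.38) rose. The part of these genes' fall in that of Uhrf1 was not tested. Dnmt3l lay below the median on all 4 differentiated arrays, at 5.15 and 5.05 in controls and 5.17 and 5.09 with EBIO.

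The effect of EBIO differed between the stages for Tet1, Tet2 and Dnmt3a, as tested by the difference between the effects, differentiated minus ES, in a fit of all 4 groups. By leading probe set it was 4.79 ± 0.32 for Tet1, 2.99 ± 0.18 for Tet2 and 1.74 ± 0.18 for Dnmt3a (SE, n = 10 arrays, adjusted p = 9.8e-07, 4.2e-07 and 2.4e-05, limma). Other tested probe sets gave smaller values, 4.54 and 3.02 for Tet1 and 1.80 for Tet2. Those of Dnmt3a gave 1.06, 0.85, 0.56 and 0.47, of which the 0.56 of 1423064_at was not called (adjusted p = 0.093, limma). For Dnmt3l the fit gave 0.52 ± 0.18 (SE, adjusted p = 0.047), but its effect in differentiated cells could not be measured, because it lay below the median on all those arrays and entered this fit through the ES arrays alone. The value restates the fall in ES cells and shows no difference between stages. The Dnmt3l call ended when any 1 array other than ES control 2 and ES EBIO 3 was left out (adjusted p = 0.061 to 0.15). Of the 19 probe sets tested, Dnmt3l included, 10 were called higher, against 18.6% of all probe sets tested. The 10 came from 4 genes, so they are not independent. None of the 19 was lower, at an unadjusted p under 0.05 either (limma), against 21.1% of probe sets and 24.3% of genes by leading probe set. In either direction 39.6% of all probe sets were called. For Dnmt1 (0.06), Uhrf1 (0.15) and Tet3 (0.43) no difference was called (adjusted p = 0.84, 0.55 and 0.059), with 95% confidence intervals of -0.37 to 0.48, -0.25 to 0.56 and 0.07 to 0.79. Tet3 was called with 1 value per gene tested, its probe sets averaged (adjusted p = 0.031), and without ES control 3 (adjusted p = 0.033).

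Dnmt3b showed the opposite sign, -0.94 ± 0.48 (SE, n = 10 arrays, adjusted p = 0.15, limma). With the replicate number as a block, which pairs ES cultures of the same passage, it was called lower (adjusted p = 0.009), as it was without ES control 3 (-1.36, adjusted p = 0.0013). The block also called its other probe set lower (-0.76, adjusted p = 0.0045). The stages also differed in the length of treatment, 3 against 10 days, and their arrays were normalized apart, so stage, duration and processing cannot be told apart.

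Ranks within an array gave the order of the groups for each leading probe set. Dnmt3l ranked at percentile 97.6 to 98.3 in untreated ES cells, 96.8 to 97.2 in treated ES cells, and 41.3 to 43.3 in all differentiated cells, whose 2 groups overlapped. Dnmt3b went from 94.8 to 98.3 and 96.4 to 97.8 in the ES groups, which overlapped, to 71.0 to 71.2 in untreated and 64.0 to 65.3 in treated differentiated cells. These genes thus ranked lower at the later stage with or without EBIO.

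The leading Dnmt3a probe set had the reverse order. It ranked at 53.9 to 59.5 in treated ES cells, 77.3 to 78.1 in untreated ES cells and 91.7 to 93.2 in differentiated cells. Probe set 1423064_at did not follow it: treated differentiated cells (67.9 to 68.2) ranked below untreated ES cells (73.3 to 78.2), and untreated differentiated cells (76.0) lay within their range. Tet1 ranked at 97.1 to 97.9 in untreated ES cells, 67.7 and above in treated ES cells, 67.1 to 69.2 in untreated and 71.6 to 72.0 in treated differentiated cells. By this probe set treated ES cells overlapped both differentiated groups. By 1429448_s_at they ranked above both (71.4 to 73.3, against 61.0 to 62.6 and 66.0 to 67.1), and by 1419896_at below both (39.2 to 51.0, against 55.7 to 58.9), so the order of these groups is not settled for Tet1.

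Tet2 ranked at 82.4 to 84.4 in untreated ES cells, 78.4 to 79.5 and 82.4 to 82.9 in untreated and treated differentiated cells, and 56.0 to 58.4 in treated ES cells, which stood apart as the lowest. Uhrf1 ranked highest in untreated ES cells (96.4 to 97.0), followed by treated ES cells (93.6 to 94.8), untreated (88.1 to 89.2) and treated (82.3 to 84.5) differentiated cells, with no overlap between neighbours. Dnmt1 lay within 91.1 to 96.2 in all groups, at 94.6 to 96.2 in ES cells and 91.1 to 93.2 in differentiated cells. Its other probe sets also ranked lower in differentiated than in ES cells, without overlap. Tet3 stayed within 50.6 to 60.8, lowest in untreated differentiated cells.

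**Figure D4:**
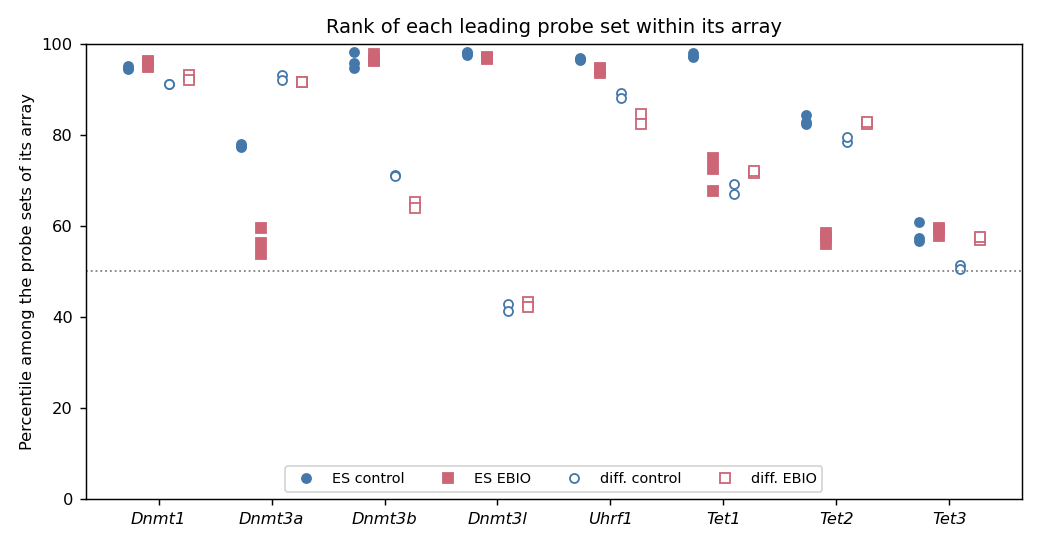
Percentile of the leading probe set among all probe sets of its array (vertical axis, dotted line at 50) for each gene, 1 symbol per array: circles are controls, squares EBIO, filled symbols ES and open symbols differentiated cells. Dnmt3l falls from above 96 in ES cells to below 44 in differentiated cells, and Dnmt1 stays above 91 in all groups.

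The genes most like each member were sought by the smallest Euclidean distance between leading probe sets over the 10 arrays, each value being set against the untreated mean of its own stage. The nearest to Tet1 was Pou5f1, the central pluripotency factor, at a distance of 0.94, with differences of -4.20 in ES and 0.36 in differentiated cells. In differentiated cells Pou5f1 was too dim to test. It exceeded the array median on 1 EBIO array only (5.02 and 6.10 with EBIO), so the 0.36 shows no rise. Pou5f1 measured 11.88 ± 0.02 in untreated and 7.68 ± 0.34 in treated ES cells (SD, n = 3 each). Next to Tet1 came Trim2 (1.08) and Dpys (1.21).

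For the others the nearest genes were Mllt6 (0.46), Pla2g10 (0.54) and Mael (0.55) for Tet2, Asxl2 (0.46), Cdyl2 (0.46) and Utp14a (0.47) for Dnmt3a, and Chaf1b (0.34), Eng (0.38) and Prpsap1 (0.38) for Uhrf1. Chaf1b encodes a subunit of the chromatin assembly factor that acts at replication forks. Dnmt3b lay nearest to Spin4 (0.49), Lasp1 (0.60) and Usp27x (0.60), and Dnmt3l to Diaph2 (0.18), Eipr1 (0.19) and Gpx6 (0.24). Dnmt1 lay nearest to Edc4 (0.20), Gm7694 (0.20) and Znhit2 (0.22), and Tet3 to Magi1 (0.15), Dspp (0.18) and Dpf3 (0.19). For members that changed little, short distances reflect small values throughout.

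Other genes of the pathway were counted by their leading probe set, where 20.5% of 12096 genes tested in ES cells were called lower and 22.8% higher, with a median difference of -0.04. Of the 19 partners of the methyltransferases 10 were lower and 1 higher in ES cells (median -0.39). Prdm14 (-3.38), a factor that holds methylation low in naive cells, and Dppa3 (-3.31), which shields DNA from methylation, fell most. Prdm14 lay below the median on every treated array and passed the filter through the controls alone, so its fall is given as a value only. Uhrf2, the relative of Uhrf1, rose from 7.02 to 8.37 (1.35). Of 6 methyl-CpG readers tested 3 were higher and none lower (median 0.45): Mbd2 (1.65), Mbd1 (1.16) and Zbtb33 (0.74). At an unadjusted p under 0.05 the count of lower readers was 0 as well (limma).

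Genes of base excision repair, which finishes demethylation after TDG, and of cytosine deamination were lower in 11 and higher in 2 of 19 tested in ES cells (median -0.58). Ung (-1.93), the uracil glycosylase, and the deaminase gene Apobec3 (-2.15) fell most, and Gadd45g (3.55) and Gadd45b (1.97) rose. That list also holds Gadd45gip1 (-1.44), known for a mitochondrial role and not for repair. Of 12 tested genes of the methyl donor and folate cycle 7 were lower and 2 higher (median -0.90). Shmt1 (-2.48) and Gldc (-1.78), of serine and glycine metabolism, fell, while Ahcyl1 (1.08) and Mtr (0.54), the methionine synthase gene, rose.

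Of 10 genes around alpha-ketoglutarate, the cosubstrate of TET enzymes, 3 were lower, Idh3g (-1.05), Sdhb (-0.53) and Idh3a (-0.40), and 1, Ogdh (0.74), was higher in ES cells. Germ line genes known to be silenced by promoter methylation were lower in 4 and higher in none of 8 tested (median -0.57, 2 higher at an unadjusted p under 0.05, limma): Sycp3 (-6.09), Mael (-2.61), Tex19.1 (-1.86) and Dazl (-0.72). The treated means of Sycp3 (3.67), Mael (3.77) and Dazl (4.48) lay below the treated arrays' medians, so the filter favoured a fall for them. Of the 15 genes listed, 9 lay below the median on every treated array. The count of falls is therefore given as a value only. No methylation was measured here.

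**Figure D5:**
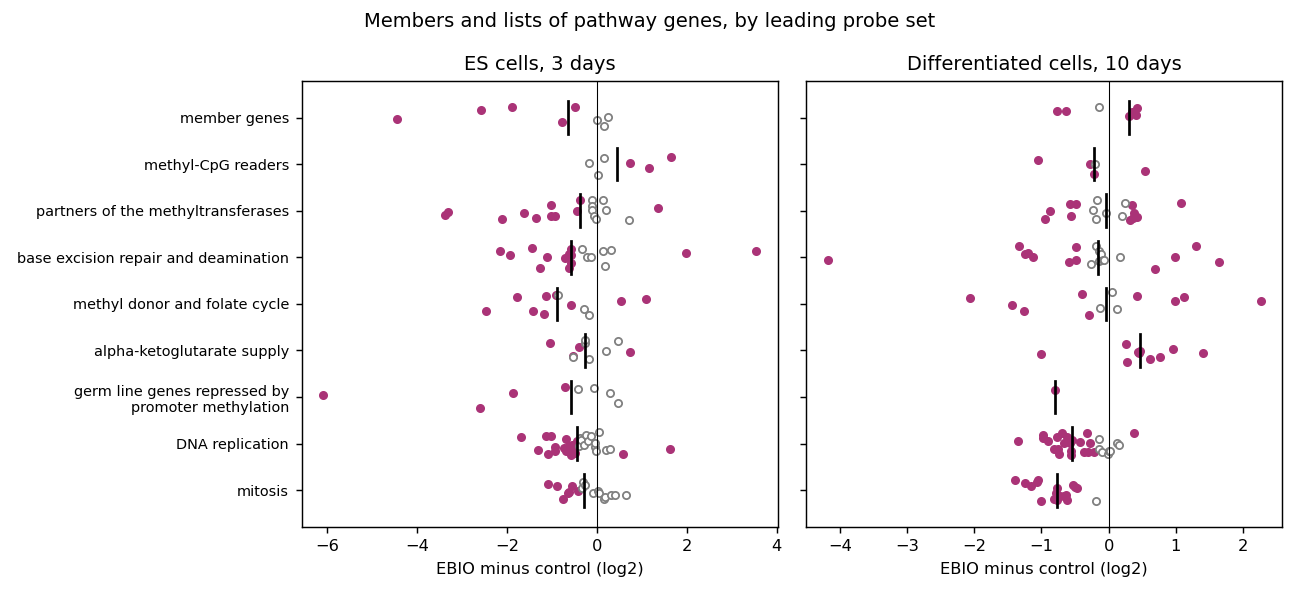
EBIO minus control (log2, horizontal axis) for the leading probe set of each tested gene, by list, in ES cells (left) and differentiated cells (right), whose axes differ in scale; filled points passed the test, open points did not, and black bars are list medians. In differentiated cells 9 of 10 genes around alpha-ketoglutarate lie right of 0, with 1 left of it.

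In differentiated cells 31.8% of 12338 genes tested by their leading probe set were called higher and 31.7% lower, with a median difference of 0.02. Genes around alpha-ketoglutarate were higher in 9 of 10 (median 0.47), led by Ogdh (1.40) and Idh3a (0.95), and lower in 1, Idh1 (-1.01). Partners of the methyltransferases were higher in 6 and lower in 5 of 17 tested (median -0.05). Kdm1b (1.08), a histone demethylase gene, and Hdac2 (0.42) led the rises. Cdca7l (-0.94), Cdca7 (-0.87), Zfp57 (-0.58), Hdac1 (-0.56) and Hells (-0.48), the remodelling partner of Cdca7, fell.

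Methyl-CpG readers were lower in 3 of 5 tested, Zbtb38 (-1.06), Zbtb33 (-0.28) and Mbd2 (-0.22), and higher in 1, Mbd3 (0.54). Base excision repair and deamination genes were lower in 8 and higher in 4 of 20 (median -0.17). Apobec1 (-4.19) and Apobec3 (-1.33) fell most, and Gadd45g (1.65), Apobec2 (1.31), known from muscle, Gadd45a (0.98) and Polb (0.69) rose. The methyl donor and folate cycle had 4 higher and 5 lower of 12. Gldc (2.27), Mtr (1.12), Ahcyl2 (0.99) and Mthfd2 (0.43) rose, and Mthfd1l (-2.07), Shmt1 (-1.44), Ahcy (-1.26), Mthfd1 (-0.40) and Shmt2 (-0.29) fell. Only 1 of the 15 germ line genes, Tdrkh (-0.80), was bright enough to test, and its treated mean (5.47) lay below the array medians.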

How the data were processed

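Total RNA of 10 mouse cultures was hybridised to Affymetrix arrays of 45101 probe sets. The authors deposited log2 expression values made with RMA, per the submitters' processing notes, with Bioconductor per the labels; its version and the annotation used are not given in the sources used here. Of these 64 are controls. In GEO's platform annotation 34945 of the others have 1 gene symbol; of all probe sets, controls included, 932 have several and 9211 none. Symbols were taken from RefSeq's gene table for 34754 probe sets whose gene ID it holds. The small number of arrays limits the precision.

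From the log2 values deposited, EBIO was compared with control by limma 3.58.1 (R 4.3.3) in each stage, and the difference between these effects in a fit of all 4 groups, on probe sets above the array's 50th percentile on as many arrays as the smaller group holds. p-values were adjusted by Benjamini and Hochberg over all probe sets tested. The fits were checked on simulated data. The labels describe independent experiments.

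The members and lists were chosen with earlier results of these data known. All member probe sets are named, with the 2 largest rises and falls of each list and the 3 nearest genes of each member. All called genes of a list are also named in the text for several lists where 5 or fewer were called in a direction, which was decided after their values were seen, as was the naming of Gadd45gip1 and of single cell type markers.

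ES replicate numbers are passages, and deviations from the group means of cultures of the same number correlated at 0.350, 0.224 and 0.636. EBIO 2 correlated slightly more with control 1 (0.251) than with control 2, whereas EBIO 1 correlated less with control 2 (0.152). The replicate 3 cultures correlated negatively with the others, so the values set replicate 3 apart and pair replicates 1 and 2 less clearly. The ES differences and p-values are from a fit without pairing unless the block is named. Alternatives varied the filter, the unit tested, the variance prior, the arrays in the fit, the replicate block, the normalization and the replicates.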

Additional observations from a re-analysis of the deposited data

Results flagged for a closer look

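The effect of EBIO differed between differentiated and ES cells, by a test of the difference itself, for 3 genes measured at both stages. On the log2 scale the effect in differentiated cells minus that in ES cells was 4.79 for Tet1, 2.99 for Tet2 and 1.74 for Dnmt3a by leading probe set. Their other probe sets gave smaller values, and 1423064_at of Dnmt3a (0.56) was not called. The same test gave 0.52 for Dnmt3l, which lay below the array median on all differentiated arrays, so this value shows no difference between stages, and its call ended when any 1 array other than ES control 2 and ES EBIO 3 was left out. Of the genes tested by their leading probe set 43.8% were called in either direction in this contrast.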

How the results depend on the processing

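No called member changed direction under any alternative run. The 5 genes lower in ES cells stayed 5 in number under every alternative other than leaving out 1 array (4 to 5), and the count of higher genes there was 0 to 1 when 1 array was left out. In differentiated cells the 4 higher genes became 2 without the filter, 2 with the filter at the 75th percentile and 2 with all 4 groups in the fit, and 2 to 3 when 1 array was left out. The 2 lower genes became 1 with the filter at the 75th percentile and 1 with all 4 groups in the fit, and stayed 2 when 1 array was left out. For the difference between the effects, the 4 higher genes (Dnmt3l, too dim in differentiated cells, among them) became 5 with 1 value per gene, 3 with quantile normalization of all arrays, and 3 to 4 when 1 array was left out; the 0 lower genes became 1 with the replicate block and 0 to 1 when 1 array was left out. Apart from settings whose construction shows it, such as fewer arrays, the cause was not tested.

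With the replicate block, 1 other member call changed in the difference between effects, Dnmt3a probe set 1423064_at (0.56, adjusted p = 0.046). In differentiated cells the numbers are only shared (correlation -0.113), and there the block left Dnmt3a probe set 1460324_at uncalled (adjusted p = 0.055). The crossed pairing, chosen after seeing the data, also gave 4 higher and 2 lower genes. Leaving out both passage 27 arrays, likewise chosen then, left 5 lower genes in ES cells.

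Of the list counts 18 in ES and 9 in differentiated cells moved by over 1.5 times, or between none and some. Over all probe sets, calls in differentiated cells were 5031 higher and 3844 lower with the stricter filter and 5045 and 4733 with all 4 groups in the fit. Quantile normalization moved 31 of 32 group levels by more than the spread between replicates.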
